A study of Mus musculus with 19 samples.

Results

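The tissues held by an untreated day-15 differentiation culture of mouse embryonic stem (ES) cells were read from its RNA, with sorted day-2 cells of the same experiment as the starting point. The comparison takes 1 library of each kind out of the 19 libraries of the series, both chosen by title. The day-15 library came from Rex1 GFPd2 cells, an ES line in which Rex1 (Zfp42) drives a short-lived green fluorescent protein (GFP), kept in serum medium without AICAR, an activator of the kinase AMPK, until day 15. The day-2 library came from the same line after 2 days in that medium, also without AICAR, and held cells sorted for lack of GFP and of SSEA1, a sugar on the surface of mouse ES cells. The day-15 culture was grown on from cells that had passed this sort, and its label records no sort at harvest. The day and the sort at harvest thus differ together between both libraries and cannot be told apart. All cells descend from 1 reporter line grown on gelatin, and the labels call both samples ESC, after the line of origin.

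ES cells that lose the signals holding them undifferentiated pass through a state like the epiblast of the early embryo and then form cells of all germ layers, along with extraembryonic types. In serum the cultures are known to become rich in mesenchyme, muscle, endoderm that secretes basement membrane, and patches of epithelium. Mesenchyme is read from fibrillar collagens, muscle from its own actins and myosins, and epithelium from pairs of keratins. Col1a1, Acta2 and Krt5 stand for these tissues, as a collagen chain, the smooth muscle actin and the keratin of the basal epidermis.

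Muscle genes are controlled in part through the CArG box, a site bound by serum response factor, and promoter windows with this box are shown because the muscle programme is one of the main ones read at day 15. Of 55 genes of the smooth, cardiac and skeletal muscle lists, 42 matched an entry in the RefSeq promoter table (GRCm38.p6), which spans 250 bases before to 50 bases after the start. The box was found in 5 of these 42 (11.9%), against 488 of all 27025 genes with a promoter in the table (1.81%). Counted by promoter, each 300 bases long, it was in 535 of 32851 (1.63%). Only boxes whose bases between CC and GG were all A or T were searched for. For list genes the whole window of 30 bases also had to lie inside the promoter, a rule not applied to the count over all genes. The motif is its own reverse complement in form, so a match on one strand is a match on the other, and a match is only a run of letters. Each window of 30 bases is printed 5′ to 3′ on the gene's strand with the box in capitals.
Myl9: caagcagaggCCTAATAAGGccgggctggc
Actc1: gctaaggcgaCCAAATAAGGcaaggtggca
Myl3: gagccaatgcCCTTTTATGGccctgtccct
Myl7: ccattcctctCCTTATTTGGgcctctgggt
Acta1: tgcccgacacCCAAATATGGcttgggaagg
The windows lie at chr2:156775293-156775322 (plus strand) for Myl9, chr2:114052903-114052932 (minus) for Actc1, chr9:110763583-110763612 (plus) for Myl3, chr11:5898824-5898853 (minus) for Myl7 and chr8:123894829-123894858 (minus) for Acta1. The first base of the box was 161, 47, 85, 61 and 73 bases from the start in that order. The window of Acta2 held no such run of letters, but a box with another base between CC and GG would have been missed.

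The day-15 library had 7712882 reads in genes and the day-2 sorted library 6671053, within the range of 5771671 to 14233421 over all 19 libraries. Rn45s, a ribosomal RNA precursor, took 0.323% of the reads at day 15 and 0.474% in the day-2 sorted cells. Each group is 1 library, so no difference has a replicate check and no p-value is given. Levels are in CPM, the usual scaling of reads to the total in genes, and folds are ratios of CPM with 95% intervals that cover counting error only. A log2 ratio has 2 reads added to each side. An entry was called higher or lower past 2-fold where at least 50 reads were found in 1 of the 2 libraries, and "rose" and "fell" are used of such calls only. "At day 2" stands for the day-2 sorted library. In RNA from a mixed culture, fewer cells of a type and less RNA per cell cannot be told apart.

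Of 11554 entries with enough reads, 3647 (31.6%) were called higher at day 15 and 2076 (18.0%) lower, and the median log2 ratio was 0.21. These shares are the background for the counts of list members below, and they cover only entries with enough reads. Other scalings moved this median to between 0.01 and 0.35, so the sign of a ratio near 0 depends on the scaling. At 10 CPM or more, 9825 entries (43.2%) were read at day 15 and 8446 (37.1%) at day 2. There were 237 entries with at least 50 reads at day 15 and none at day 2, and 21 the other way round. A second day-2 library, whose title names no sort while its sorting field does, gives a measure of how far libraries of the same day differ. Set against that library, the day-2 sorted one had 48 of 9484 entries (0.506%) past 2-fold upward and 8 (0.0844%) downward.

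The marker genes followed the label. Col1a1 stood at 14755 CPM at day 15 and 11.1 CPM at day 2. Acta2 stood at 2021 CPM at day 15 and 8.99 CPM at day 2. Krt5 stood at 734 CPM at day 15 and 0.75 CPM at day 2 (5 reads). Krt5 was thus near the floor at day 2, while Col1a1 with 74 reads and Acta2 with 60 reads at day 2 were low but above the read minimum. Zfp42, the reporter locus, was at 5.45 CPM at day 15 and 21.6 CPM at day 2, and Pou5f1 (Oct4), the central pluripotency factor, was at 26.4 CPM at day 15 and 1239 CPM at day 2. Nanog, a factor of the naive state, was at 3.89 CPM at day 15 and 47.1 CPM at day 2. The summed general pluripotency list of the day-15 library was the lowest of the 19 libraries.

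**Figure D1:**
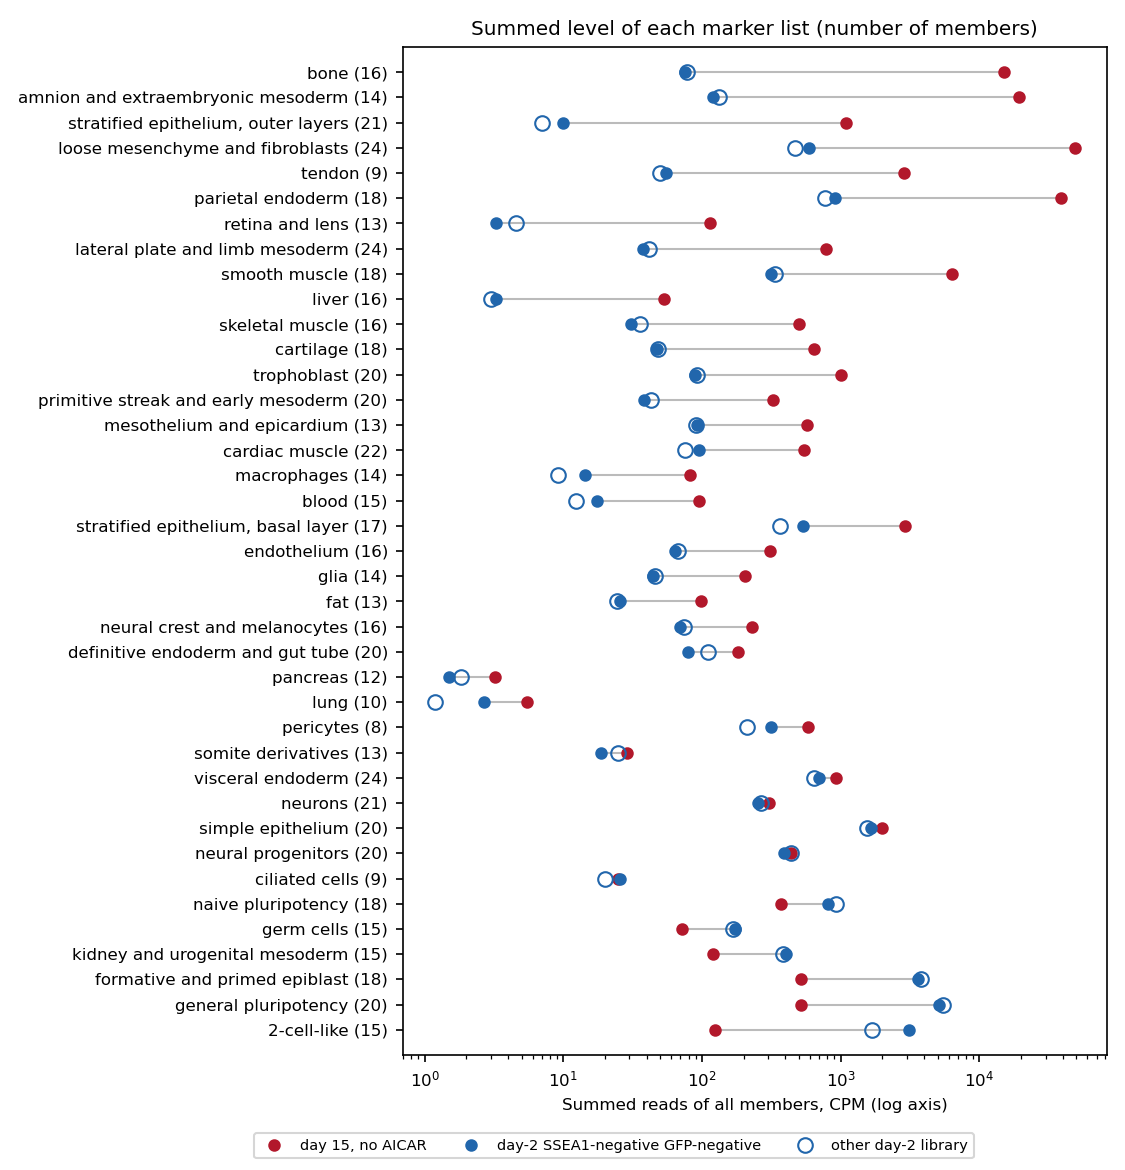
Summed level of each marker list in CPM on a log axis, ordered by the ratio of day 15 (red) to the day-2 sorted library (filled blue), with the other day-2 library as open circles and the number of members in brackets. Mesenchyme stood at 48893 CPM at day 15 and 589 CPM at day 2, while the 2-cell-like list at the bottom stood at 125 CPM at day 15 and 3109 CPM at day 2.

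Mesenchyme and its matrix took the largest share of reads among the tissue lists. All 24 members of the loose mesenchyme and fibroblast list rose, and together they held 4.89% of the day-15 reads and 0.0589% of the day-2 reads. The sum was 48893 CPM at day 15 and 589 CPM at day 2, 83-fold higher (80.5 to 85.7). Col1a1 and Col1a2, which form type I collagen, were 1330-fold (1059 to 1694) and 738-fold (600 to 919) higher. Col3a1, the type III collagen of loose tissue, reached 10580 CPM at day 15, against 4.05 CPM at day 2, and had the largest log2 ratio of all entries with at least 100 reads, 11.25. Postn (periostin), a matrix protein of stretched connective tissue, had 7847 reads at day 15 and 1 read at day 2, an interval of 1218-fold to 268108-fold.

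Some members had no day-2 read at all. Lum (lumican), which spaces collagen fibrils, had 316 CPM at day 15 and 0 reads at day 2, at least 703-fold higher with the 0 set to a floor of 3 reads. Prrx1, a homeobox factor of limb and craniofacial mesenchyme, had 120 CPM at day 15 and 0 reads at day 2, at least 266-fold higher. Fap, a surface protease of activated fibroblasts, had 21.9 CPM at day 15 and 0 reads at day 2, at least 48.7-fold higher. Other abundant members were already well read at day 2. Fn1 (fibronectin) stood at 6332 CPM at day 15 and 337 CPM at day 2, and Vim (vimentin), the intermediate filament of mesenchyme, at 1796 CPM at day 15 and 101 CPM at day 2.

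Of the 12 largest ratios among entries with at least 100 reads, 7 belonged to collagen chains, namely Col3a1, Col6a1, Col1a1, Col6a3, Col8a1, Col12a1 and Col4a2. Col6a1, a chain of the beaded filaments around cells, had 1436 CPM at day 15 and 0.6 CPM at day 2 (4 reads). Tnc (tenascin C), a matrix protein of growing connective tissue, had 1790 CPM at day 15 and 1.5 CPM at day 2. Ccdc80, a secreted matrix protein, had 2829 reads at day 15 and 1 read at day 2.

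Collagen assembly genes rose with the collagens. All 26 members of the list of fibrillar collagens and their processing were called higher, with a sum of 46494 CPM at day 15 and 482 CPM at day 2. Serpinh1, the collagen chaperone of the endoplasmic reticulum, had 1498 CPM at day 15 and 41.5 CPM at day 2. Lox, which crosslinks collagen and elastin, had 413 CPM at day 15 and 0.3 CPM at day 2 (2 reads), and P4ha1, a prolyl hydroxylase, had 635 CPM at day 15 and 25.9 CPM at day 2. On the elastic fibre list, 17 of 18 members rose, among them Fbn1 (fibrillin), at 779 CPM at day 15 and 11.2 CPM at day 2, and Eln (elastin), at 219 CPM at day 15 and 2.7 CPM at day 2. Ltbp4, which tethers latent TGF-beta, was the member inside 2-fold, at 181 CPM at day 15 and 126 CPM at day 2.

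Proteoglycans and matrix proteases rose with few exceptions. Of 22 proteoglycan members, 17 rose, and Bgn (biglycan), a small collagen-binding proteoglycan, stood at 647 CPM at day 15 and 1.05 CPM at day 2. Acan (aggrecan), the large proteoglycan of cartilage, fell, with 5.32 CPM at day 15 and 16.5 CPM at day 2. All 18 proteases and inhibitors with enough reads rose, out of 22. Mmp2, a gelatinase, stood at 652 CPM at day 15 and 40.6 CPM at day 2, and Timp2, an inhibitor of such enzymes, at 233 CPM at day 15 and 1.35 CPM at day 2.

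**Figure D2:**
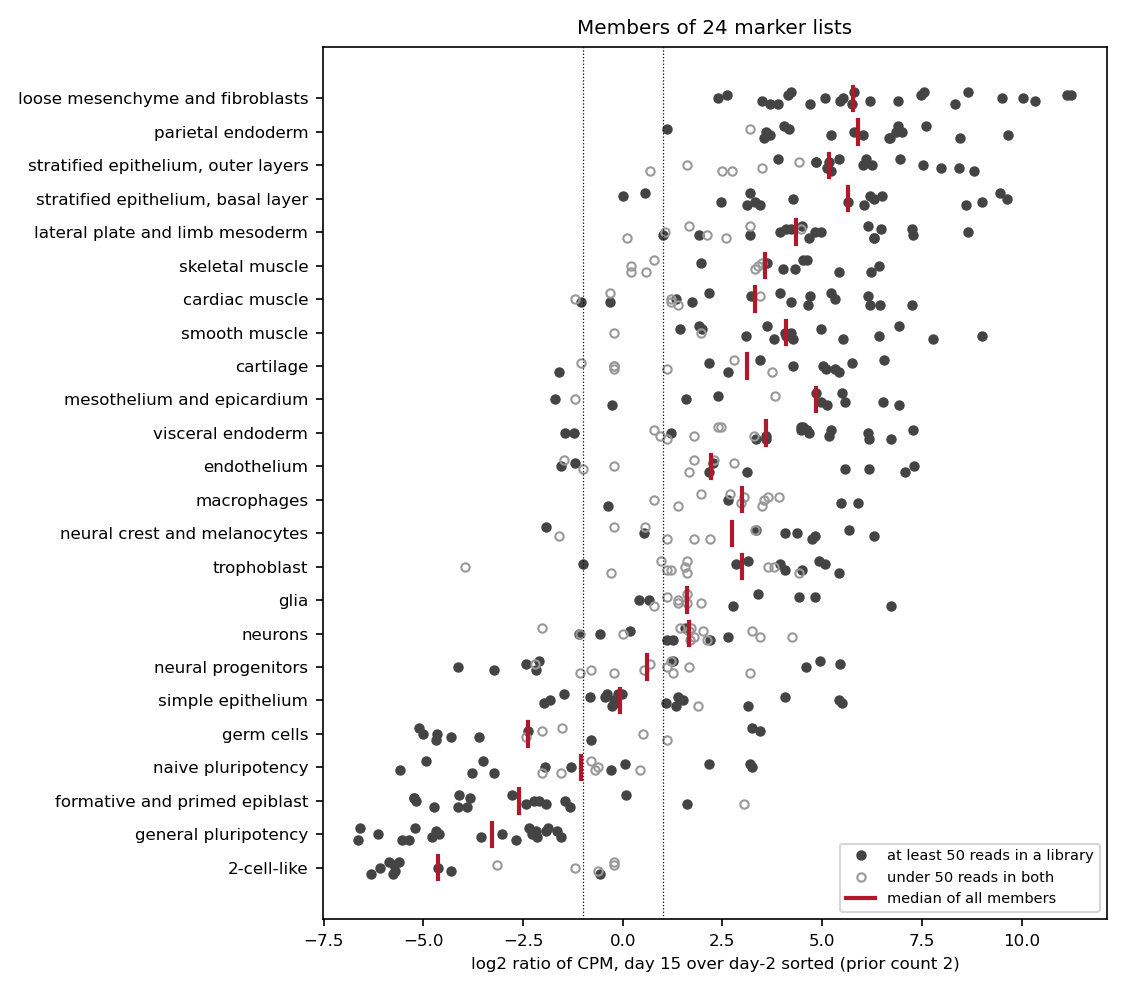
Log2 ratio of CPM, day 15 over day-2 sorted, for each member of 24 marker lists, with filled points for members with at least 50 reads in a library, open points for the others, a red bar at the median of all members and dotted lines at 2-fold. All 24 mesenchyme members lie right of the 2-fold line and all 20 general pluripotency members left of it.

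Smooth muscle genes, contractile proteins of vessel and gut walls, rose nearly throughout their list. Of 18 members of the smooth muscle list 16 rose, and the sum was 6345 CPM at day 15 and 316 CPM at day 2, 20.1-fold higher (19.2 to 21). Acta2 was 225-fold (175 to 295) higher, and Tagln, an actin-binding protein of early smooth muscle, stood at 893 CPM at day 15 and 19.3 CPM at day 2. Myh11, the smooth muscle myosin that marks its mature form, stood at 165 CPM at day 15 and 1.05 CPM at day 2 (7 reads). Myocd (myocardin), the partner of serum response factor at CArG boxes, had 7.39 CPM at day 15 and 1 read at day 2. Myl9, whose promoter window is printed above, encodes the regulatory light chain and had 261 CPM at day 15 and 18.4 CPM at day 2. Pln (phospholamban), a regulator of the calcium pump, had 0 reads in both libraries.

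The 6 actin genes are compared per gene length, in RPKM, the authors' values scaled to exon length and library size. Their ratios compare transcripts and do not give the share of each muscle type in the culture. At day 15 Acta2 was at 1704 RPKM, Actg2 (the actin of gut smooth muscle) at 327, Actc1 (cardiac) at 104 and Acta1 (skeletal) at 63.2. Acta2 was thus 5.2 times Actg2, 16.3 times Actc1 and 27 times Acta1 at day 15. At day 2 the muscle actins stood at 7.52 RPKM for Acta2, 0.377 for Actg2, 1.15 for Actc1 and 2.91 for Acta1. The cytoplasmic actins were high in both libraries: Actb stood at 2923 RPKM at day 15 and 2415 at day 2, inside 2-fold, and Actg1 at 3741 RPKM at day 15 and 1207 at day 2. The 4 muscle actins and Actg1 rose.

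Cardiac genes were read at lower levels and unevenly. On the cardiac muscle list 14 of 22 members rose, and the sum was 545 CPM at day 15 and 95.2 CPM at day 2, 5.73-fold higher (5.27 to 6.24). Gata4 and Hand2, factors of heart and other mesoderm, had 107 and 68.6 CPM at day 15 and 1.2 and 0.15 CPM at day 2. Gata4 also stands in the visceral endoderm list. Tnnt2, the troponin T of heart, had 26.1 CPM at day 15 and 0 reads at day 2, at least 57.9-fold higher. Genes of working heart muscle were low: Nkx2-5, an early heart factor, and Nppa, the atrial peptide, each had 0.778 CPM at day 15 and 1 read at day 2. Myl2, the light chain of the ventricle, had 0 reads at day 15 and 2 at day 2, and Myh6, the alpha heavy chain, fell, with 14 CPM at day 15 and 29.5 CPM at day 2. Actc1, with a CArG box in its window, stood at 121 CPM at day 15 and 1.35 CPM at day 2 and rose. Myl3 rose as well but at a low level, with 6.74 CPM at day 15 and 0.45 CPM at day 2, and Myl7 had 4.41 CPM at day 15 and 1.5 CPM at day 2, under the minimum.

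Skeletal muscle was read through its embryonic genes. Of 16 members 9 had enough reads and all 9 rose, with a sum of 497 CPM at day 15 and 30.9 CPM at day 2. In undifferentiated cells this list summed to 306 CPM, so the sum is not of genes gained by day 15 alone. Myog (myogenin), the factor of muscle cell differentiation, had 147 reads at day 15 and 1 read at day 2, an interval of 22.5-fold to 5056-fold. Myod1, the muscle determination factor, had 7.13 CPM at day 15 and 0 reads at day 2. Myh3, the embryonic heavy chain, stood at 26.4 RPKM at day 15 and Myh8, the perinatal chain, at 9, against 1.56 and 0.0519 RPKM at day 2. Pax7, the factor of satellite cells, and Myf6, a late myogenic factor, had 0.259 CPM each at day 15 and 1 read each at day 2. Ckm, the muscle creatine kinase, counted together with an overlapping transcript, had 2.2 CPM at day 15 and 1.35 CPM at day 2.

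**Figure D3:**
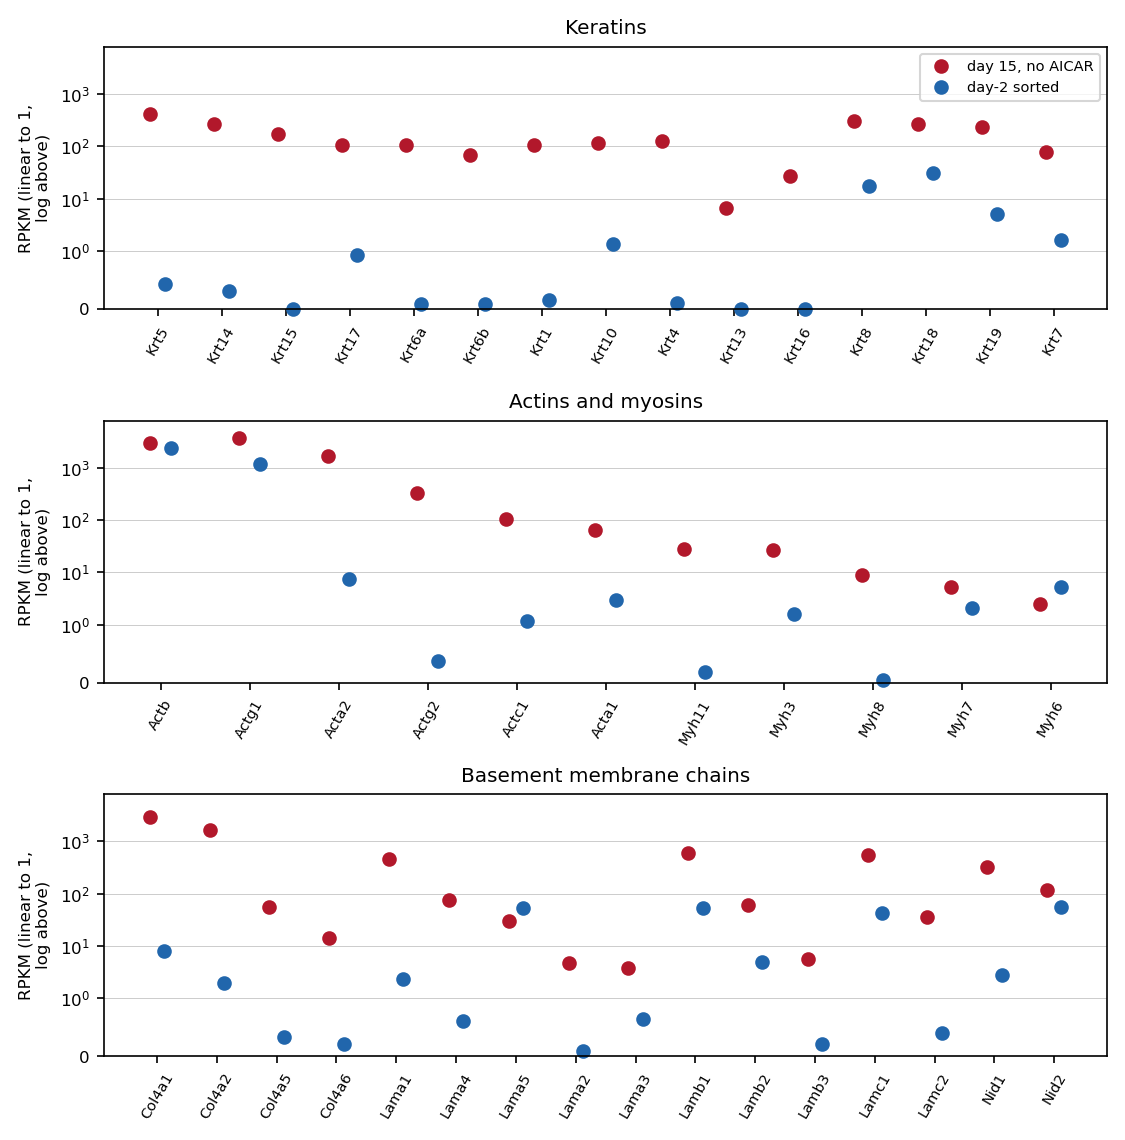
RPKM of keratins, of actins and myosins, and of basement membrane chains at day 15 (red, left of each pair) and at day 2 (blue), on an axis that is linear up to 1 and logarithmic above. Krt5 stands at 421 RPKM at day 15 and 0.426 RPKM at day 2, Acta2 at 1704 RPKM at day 15 and 7.52 RPKM at day 2, and Lama1 and Lama5 exchange their order, with 469 and 29.9 at day 15 and 2.35 and 54.1 at day 2.

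Basement membrane genes of the parietal endoderm kind were the other very abundant group. Parietal endoderm is the extraembryonic layer that lays down Reichert's membrane, rich in type IV collagen and laminin. On its list 17 of 18 members rose, with 39065 CPM at day 15 and 914 CPM at day 2, 42.7-fold higher (41.7 to 43.8). Col4a1 stood at 14561 CPM at day 15 and 41.1 CPM at day 2, and Col4a2, its partner chain, at 8583 CPM at day 15 and 10.3 CPM at day 2. Lama1, the laminin alpha chain of early basement membranes, was 198-fold (167 to 235) higher. The list shares its matrix genes with other cells that make basement membrane, so the members that are not matrix genes are given apart. Some of these stand in other lists as well, such as Dab2 with visceral endoderm and Pdgfra with mesenchyme. Which cells of the culture made them was not tested.

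Of the members outside the matrix, Sox7, a transcription factor of primitive endoderm, had 30.9 CPM at day 15 and 0 reads at day 2. It was thus at least 68.6-fold higher. Thbd (thrombomodulin), a surface receptor of thrombin, had 57 CPM at day 15 and 1 read at day 2, Plat, the tissue plasminogen activator, had 323 CPM at day 15 and 2.85 CPM at day 2, and Pth1r, the parathyroid hormone receptor, had 198 CPM at day 15 and 3.3 CPM at day 2. Pdgfra, shared with mesenchyme, stood at 196 CPM at day 15 and 1.35 CPM at day 2. Pthlh, the ligand of Pth1r, had 2.46 CPM at day 15 and 0 reads at day 2, under the read minimum. Apart from it, these genes rose together with the collagens.

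The chains of the basement membrane changed in composition. Lama1 was 15.7 times Lama5, the alpha chain of later basement membranes, in RPKM at day 15, and 0.0435 times at day 2. Lama5 itself had 320 CPM at day 15 and 584 CPM at day 2, inside 2-fold. Col4a5 and Col4a6, chains found in smooth muscle and epithelial membranes, reached 55.5 and 14.4 RPKM at day 15, against 0.329 and 0.204 RPKM at day 2. Lamb1 and Lamc1, the shared beta and gamma chains, rose as well, to 3301 and 2655 CPM at day 15 against 286 and 206 CPM at day 2. Col18a1, the collagen that yields endostatin, was the other chain inside 2-fold with Lama5, at 534 CPM at day 15 and 773 CPM at day 2. In all, 19 of 24 basement membrane members rose and none fell.

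Visceral endoderm, the absorptive layer that feeds the early embryo, was read through some of its secreted proteins and factors. Of 24 members 15 rose and 2 fell, while the sum was only 1.33-fold higher (1.28 to 1.38), with 931 CPM at day 15 and 699 CPM at day 2. Gata6 and Sox17, factors of endoderm, had 712 and 247 reads at day 15 and 2 and 1 at day 2. Afp (alpha-fetoprotein) had 244 reads at day 15 and 0 reads at day 2, at least 70.3-fold higher, and Ttr (transthyretin) had 11 CPM at day 15 and 0 reads at day 2. Apoe, a lipid carrier, and Lrp2 (megalin), its endocytic receptor, fell, with 174 and 95.6 CPM at day 15 against 407 and 259 CPM at day 2. Both of these were already well read at day 2 and make up most of the day-2 sum. Hnf4a, a factor of visceral endoderm and liver, had 2.33 CPM at day 15 and 0.899 CPM at day 2, under the minimum.

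Stratified epithelium was read from its basal to its outer layers. Of 17 basal members 15 rose, with a sum of 2909 CPM at day 15 and 536 CPM at day 2. Krt5 and Krt14, the keratin pair of basal cells, had 5662 and 2973 reads at day 15 and 5 and 3 reads at day 2. Krt15, another basal keratin, had 238 CPM at day 15 and 0 reads at day 2, at least 530-fold higher. Trp63 (p63), the master factor of stratified epithelium, had 172 reads at day 15 and 1 read at day 2, an interval of 26.3-fold to 5910-fold. Col17a1 and Itgb4, parts of the hemidesmosome that anchors basal cells, had 110 and 102 CPM at day 15 and 1.35 and 11.4 CPM at day 2. Dst and Itga6, which other cells also use for anchorage, were the members inside 2-fold, at 340 and 221 CPM at day 15 and 340 and 151 CPM at day 2.

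The outer layers were almost unread at day 2. The list summed to 1096 CPM at day 15 and 9.89 CPM at day 2, 111-fold higher (86.9 to 143), and 11 of its 21 members had no day-2 read. All 15 members with enough reads rose. Krt1 and Krt10, the keratin pair of suprabasal epidermis, stood at 108 and 118 RPKM at day 15 and 0.158 and 1.36 RPKM at day 2. Krt4, a keratin of inner lining epithelia such as the oesophagus, stood at 129 RPKM at day 15, while Krt13, its usual partner, stood at 6.61 RPKM. At day 2 Krt4 had 1 read and Krt13 none.

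Cornification genes reached the list less fully. Lor (loricrin), a main protein of the cornified envelope, had 21.4 CPM at day 15 and 3 reads at day 2, and Tgm1, the enzyme that crosslinks the envelope, had 35.3 CPM at day 15 and 2.1 CPM at day 2. Krtdap, a secreted keratinocyte protein, had 55.2 CPM at day 15 and 0 reads at day 2, at least 123-fold higher, and Sprr1a, an envelope precursor, had 11 CPM at day 15 and 0 reads at day 2. Ivl (involucrin) had 3.76 CPM at day 15 and 2 reads at day 2, under the minimum. Flg matched no entry. Krt6a, counted under a joined entry with Krt82 and Krt85, and Krt16, keratins of hair follicle and activated epidermis, had 174 and 36.8 CPM at day 15 and 1 and 0 reads at day 2.

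Simple epithelium was a group without a common direction. Of its 20 members 8 rose, 3 fell and 8 were inside 2-fold. Krt8 and Krt18, the keratin pair of simple epithelium, stood at 305 and 274 RPKM at day 15 and 17.8 and 30.9 RPKM at day 2. Krt19, a keratin of ducts and mesothelium, was 47.4-fold (34.8 to 66.2) higher, and Krt7, its companion in ducts, had 108 CPM at day 15 and 2.25 CPM at day 2. The members that fell were Cdh1 (E-cadherin), Epcam and Grhl2, an epithelial factor. Cdh1 stood at 210 CPM at day 15 and 830 CPM at day 2, 3.95-fold lower (3.73 to 4.17). The claudins of tight junctions differed among themselves: Cldn3 and Cldn4 rose, with 14.7 and 71.3 CPM at day 15 and 4.95 and 27.3 CPM at day 2, while Cldn6 and Cldn7 were inside 2-fold.

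Both classic cadherins passed the 2-fold mark in opposite directions. Cdh2 (N-cadherin), the cadherin of mesenchyme, muscle and neural cells, stood at 60 RPKM at day 15 and 4.75 RPKM at day 2, while Cdh1 stood at 79.1 RPKM at day 15 and 309 RPKM at day 2. Their ratio, Cdh2 over Cdh1, was 0.759 at day 15 and 0.0153 at day 2. On the list of the epithelial to mesenchymal switch 12 of 16 members rose and 3 fell. Zeb1 and Snai2, repressors of Cdh1, had 85.3 and 28 CPM at day 15 and 1.65 and 0.75 CPM at day 2. Twist1, a factor of mesenchyme, had 35.1 CPM at day 15 and 2.85 CPM at day 2.

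Mesothelium, the lining of body cavities, was read through specific and shared genes. Of 13 members 9 rose and 1 fell, with a sum of 574 CPM at day 15 and 92.3 CPM at day 2. Krt19, which also stands in the simple epithelium list, was among those that rose, so the sum is not of mesothelial genes alone. Msln (mesothelin) had 421 reads at day 15 and 2 at day 2, an interval of 50.1-fold to 1508-fold. Upk1b, a uroplakin also made by mesothelium, had 36 CPM at day 15 and 0 reads at day 2, at least 80.1-fold higher, and Upk3b had 21.3 CPM at day 15 and 1 read at day 2. Wt1, a factor of mesothelium and kidney, fell, with 12.6 CPM at day 15 and 41.4 CPM at day 2. Muc16 matched no entry.

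Many transcription factors of the lateral plate and limb mesoderm list rose, among them Gata4 and Gata6, which also stand in the visceral endoderm list. All 17 members of its list with enough reads rose, out of 24, with 782 CPM at day 15 and 37.8 CPM at day 2, 20.7-fold higher (18.2 to 23.6). In undifferentiated cells the same list summed to 457 CPM, so much of this fold reflects the low day-2 level. Osr1, a factor of intermediate and lateral mesoderm, had 26.3 CPM at day 15 and 0 reads at day 2, and Pitx1, a hindlimb factor, had 23.5 CPM at day 15 and 0 reads at day 2. Tbx5, the forelimb and heart factor, had 8.17 CPM at day 15 and 1 read at day 2, and Tbx4, the hindlimb factor, had 4.41 CPM at day 15 and 1.95 CPM at day 2, under the minimum. Foxf1, a factor of the mesoderm around the gut, had 9.08 CPM at day 15 and 0 reads at day 2. By contrast, the somite list had 1 member higher and 1 lower of 13: Foxc2 had 9.21 CPM at day 15 and 0 reads at day 2, and Tcf15 (paraxis) had 0.778 CPM at day 15 and 17.1 CPM at day 2.

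Hox genes, which set position along the body axis, were read at low levels over a wide range of the clusters. The A cluster summed to 53.5 CPM at day 15 and 1.05 CPM at day 2, and the B cluster to 62.8 CPM at day 15 and 1.05 CPM at day 2. The C cluster summed to 22.7 CPM at day 15 and 1.65 CPM at day 2 and the D cluster to 27.7 CPM at day 15 and 1.95 CPM at day 2. Only 10 of the 39 genes had enough reads, and all 10 rose: 4 of the A, 5 of the B and 1 of the D cluster. Hoxb3 and Hoxb2, of hindbrain and anterior trunk, had 16.2 and 15.3 CPM at day 15 and 0 and 2 reads at day 2. Hoxa11, a gene of limb and urogenital mesoderm counted together with its antisense transcript, had 9.08 CPM at day 15 and 1 read at day 2. At the posterior end Hoxd13 had 9 reads at day 15 and 8 at day 2.

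**Figure D4:**
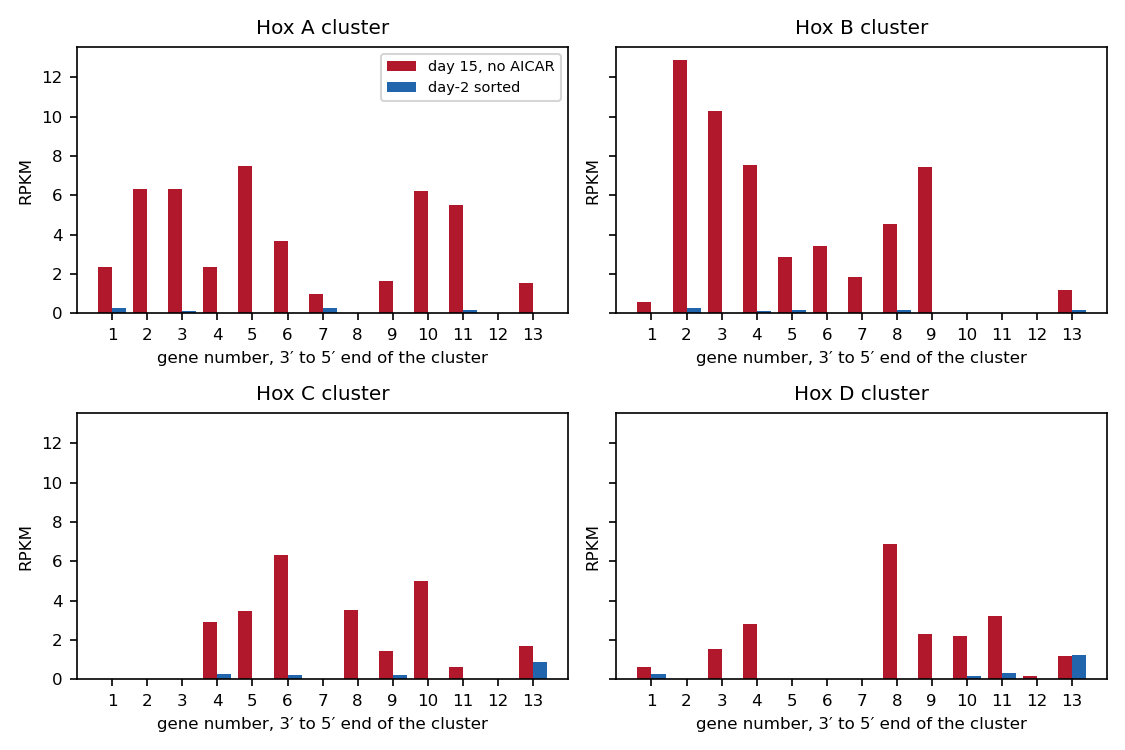
RPKM of the genes of the 4 Hox clusters by their number, at day 15 (red, left) and at day 2 (blue), on a linear axis shared by the panels, with no bar where a cluster lacks that gene or it had no read. Bars at day 15 run from anterior to posterior genes, and the B cluster is highest at Hoxb2 and Hoxb3.

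Among skeletal tissues most members with enough reads rose, 10 of 11 for cartilage, 6 of 6 for tendon and 5 of 6 for bone. On the cartilage list 10 of 18 members rose and Acan fell, with a sum of 646 CPM at day 15 and 47.2 CPM at day 2. Sox9, the master factor of cartilage, had 29 CPM at day 15 and 0.6 CPM at day 2, and Col2a1, its main collagen, was 6.32-fold (4.98 to 8.11) higher. Matn4, a matrilin counted together with Rbpjl, had 42 CPM at day 15 and 1 read at day 2. Col10a1, the collagen of hypertrophic cartilage, and Chad had 0 reads in both libraries, and Hapln1, the link protein, had 3.76 CPM at day 15 and 0 reads at day 2.

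Tendon genes rose in 6 of 9 members, with a sum of 2853 CPM at day 15 and 54.7 CPM at day 2. Most of the day-15 sum came from Tnc, given above as a protein of growing connective tissue, and Egr1. Egr1 stood at 748 CPM at day 15 and 40.8 CPM at day 2, and at 368 CPM in undifferentiated cells. Tnmd (tenomodulin), a late tendon protein, had 21.5 CPM at day 15 and 0 reads at day 2, at least 47.9-fold higher, while Scx (scleraxis), the tendon factor, had 4.93 CPM at day 15 and 1.05 CPM at day 2, under the minimum. On the bone list 5 of 16 members rose, and its day-15 sum of 14940 CPM is nearly all Col1a1. Runx2, the factor of bone cells, had 196 reads at day 15 and 2 at day 2, and Spp1 (osteopontin) was 19.2-fold (14.1 to 26.8) higher. The later bone genes were near 0: Sp7 (osterix) had 0.13 CPM at day 15 and 0.3 CPM at day 2, Bglap (osteocalcin) 0 reads in both, and Ibsp 0.648 CPM at day 15 and 0 reads at day 2. Alpl, the alkaline phosphatase shared with ES cells, fell, with 8.95 CPM at day 15 and 54.9 CPM at day 2. Of 13 fat genes only Lpl, a lipase, and Cebpa, a fat cell factor, rose, while Adipoq and Plin1 had 1 and 0 reads at day 15 and none at day 2.

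Vessel genes were read with a partial set of markers. On the endothelium list 7 of 16 members rose and 2 fell, with 308 CPM at day 15 and 63.9 CPM at day 2. Cdh5 (VE-cadherin), the junction protein of endothelium, had 466 reads at day 15 and 1 at day 2, an interval of 72-fold to 15954-fold. Kdr, a receptor of vascular growth factor, had 47.1 CPM at day 15 and 0 reads at day 2, at least 105-fold higher, and Flt1, a second such receptor, was 55.1-fold (31.4 to 107) higher. Pecam1, which ES cells also make, fell, with 7.13 CPM at day 15 and 16.6 CPM at day 2. Emcn and Robo4, of mature vessels, had 1.82 and 1.17 CPM at day 15 and 0 and 1 read at day 2. Pericyte genes rose in 6 of 8 members, such as Pdgfrb, at 151 CPM at day 15 and 3 CPM at day 2, and Notch3, the one with the most reads, was inside 2-fold at 206 CPM at day 15 and 263 CPM at day 2.

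Blood was close to unread. Of 15 members 2 rose, Runx1 and Cd34, both of which other tissues use. Runx1, a factor of blood onset and of some epithelia and mesenchyme, had 64 CPM at day 15 and 0.899 CPM at day 2. Ptprc (CD45), which marks all white blood cells, had 7 reads at day 15 and none at day 2. Gata1 and Tal1, factors of red cells, had 1 and 2 reads at day 15 and 6 each at day 2, and Hbb-bh1 and Hbb-y, embryonic globins, had 3 and 2 reads at day 15 and none at day 2.

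Macrophage genes were low at day 15 and, apart from Cd68, nearly unread at day 2. Cd68 was inside 2-fold, at 8.69 CPM at day 15 and 11.2 CPM at day 2. Of 14 members 12 had no read at day 2, and all 14 had reads at day 15. Csf1r, the receptor that macrophages need to survive, had 137 reads at day 15 and 0 at day 2, at least 39.5-fold higher, and Lyz2, their lysozyme, had 13 CPM at day 15 and 0 reads at day 2, at least 28.8-fold higher. Adgre1 (F4/80) and the complement genes C1qa, C1qb and C1qc had 2.07 to 4.28 CPM at day 15 and no read at day 2, under the minimum. Csf1, the ligand of Csf1r, had 97.4 CPM at day 15 and 1 read at day 2.

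The neural progenitor list had no common direction. Of its 20 members 9 had enough reads, and of these 4 rose and 5 fell. The sums of 435 CPM at day 15 and 388 CPM at day 2 changed order under median-of-ratios scaling, in RPKM and against the other day-2 library. Nes (nestin), also made by muscle and mesenchyme, had 322 CPM at day 15 and 134 CPM at day 2, and Fabp7, a lipid carrier of radial glia, had 22.8 CPM at day 15 and 3 reads at day 2. Sox2, Sox3 and Otx2, shared with the epiblast, fell, and Sox2 was 4.61-fold lower (3.75 to 5.72). Pax6, a factor of forebrain and eye, had 1.82 CPM at day 15 and 0.6 CPM at day 2, and Olig2, of motor neuron and oligodendrocyte precursors, had 3 reads at day 15 and 0 at day 2.

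Neuronal genes were few and low. Of 21 members 8 had enough reads, and of these 5 rose and 1 fell. Gap43, of growing axons, had 34.4 CPM at day 15 and 5.25 CPM at day 2, and Tubb3, the neuronal tubulin, was 2.18-fold (1.83 to 2.59) higher. Dcx (doublecortin), of young neurons, had 5.45 CPM at day 15 and 0 reads at day 2, at least 12.1-fold higher but under the minimum, and Th, the enzyme of dopamine synthesis, had 0 reads at day 15 and 0.75 CPM at day 2. On the neural crest list 9 of 16 members had enough reads and 7 of these rose. On the glia list 7 of 14 had enough reads and 5 of these rose, beside 31.6% of all entries tested. The glial count was 3 with a minimum of 100 reads. Sox10, the factor of crest and its glia, had 95 reads at day 15 and 1 at day 2, an interval of 14.4-fold to 3279-fold. Ednrb and Tfap2b, of neural crest, had 23.3 and 15 CPM at day 15 and 0 reads at day 2. Gfap, the filament of glia, had 12.6 CPM at day 15 and 0.3 CPM at day 2, while Mog, of oligodendrocytes, had 2 reads at day 15 and none at day 2.

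Of the inner organs little was read. No member of the lung or the pancreas list had 50 reads, and they summed to 5.45 and 3.24 CPM at day 15 and 2.7 and 1.5 CPM at day 2. Sftpc, the surfactant protein of lung, and Ins1 and Ins2, the insulin genes, had 0 reads in both libraries. Liver was read only through Afp and Ttr, shared with visceral endoderm: Alb (albumin) had 4 reads at day 15 and 0 at day 2. On the definitive endoderm and gut tube list 6 of 20 members had enough reads, and of these 5 rose and 1 fell. Those that rose include Gata6, at 92.3 CPM at day 15 and 0.3 CPM at day 2, and Sox17. Both also stand in the visceral endoderm list, as does Foxa2, at 14.1 CPM at day 15 and 0.899 CPM at day 2. Cdx2, a gut factor, was at 0.778 CPM at day 15 and 1 read at day 2. On the kidney list 4 members rose and 3 fell, and Nphs1 (nephrin), counted with its antisense partner, was 40.5-fold lower (21 to 89.3). Of 13 members of the retina and lens list only 2 had enough reads, the crystallins Cryab, also made by muscle, and Cryaa. They rose, at 89.5 and 15.9 CPM at day 15 against 1.05 CPM and 0 reads at day 2. Crygs, another lens crystallin, and the retinal genes Crx and Rpe65 had 0 reads in both libraries.

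Trophoblast, the outer layer of the placenta, was read weakly apart from shared keratins. Of 20 members 8 rose, of which Krt7, Krt8 and Krt18 belong to simple epithelium as well. Prl2c2 (proliferin), a hormone of giant cells, had 9.72 CPM at day 15 and 0 reads at day 2, at least 21.6-fold higher, and Tpbpa, of spongiotrophoblast, had 8.82 CPM at day 15 and 0 reads at day 2, at least 19.6-fold higher. Gata3 and Tfap2c, factors of trophoblast and other epithelia, had 16.7 and 18.2 CPM at day 15 and 0.45 and 2.25 CPM at day 2. Gcm1, of the syncytium, had 0 reads at day 15 and 3.75 CPM at day 2, and Cdx2 was near 0 in both.

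Pluripotency genes fell as a whole, with a few exceptions in the naive list. All 20 members of the general pluripotency list fell, and the sum was 515 CPM at day 15 and 5076 CPM at day 2. Pou5f1 was 46.8-fold lower (40.8 to 54.1). Utf1, a chromatin factor of ES cells, stood at 5.7 CPM at day 15 and 417 CPM at day 2, and Dnmt3l, a cofactor of DNA methylation, had 21 reads at day 15 and 1968 at day 2. The member that fell least was Trp53 (p53), at 102 CPM at day 15 and 300 CPM at day 2.

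Naive genes split in both directions. Of 18 members 7 fell and 3 rose. Nanog was 12.1-fold lower (8.31 to 18.2) and Zfp42 3.96-fold lower (2.79 to 5.73), while Dppa5a, an RNA-binding protein of ES cells, stood at 10.1 CPM at day 15 and 500 CPM at day 2. Those that rose were Klf4, Klf5 and Tbx3, which epithelia and mesoderm also use. Klf4 stood at 155 CPM at day 15 and 16.2 CPM at day 2, 9.59-fold higher (7.87 to 11.8).

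Genes of the epiblast, the embryonic layer that follows the naive state, fell as well. Of 18 formative and primed epiblast members 15 fell and 1 rose, with a sum of 519 CPM at day 15 and 3590 CPM at day 2. Dnmt3b, the de novo DNA methyltransferase, was 37.7-fold lower (34 to 41.8). Pou3f1 (Oct6) stood at 3.37 CPM at day 15 and 137 CPM at day 2, and Fgf5, the classic epiblast growth factor, at 2.59 CPM at day 15 and 42.4 CPM at day 2. Sox4, a factor of many progenitors, rose, with 162 CPM at day 15 and 53.1 CPM at day 2. Cer1, an inhibitor made by anterior visceral endoderm, had 2.2 CPM at day 15 and 0 reads at day 2.

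The 2-cell-like list, named after transcripts of the cleaving embryo, had the smallest ratio of sums of the 69 lists, 0.0403. Of 15 members 9 fell, with a sum of 125 CPM at day 15 and 3109 CPM at day 2. The 6 Zscan4 copies on it stood at 3.89 to 13.2 CPM at day 15 and 284 to 730 CPM at day 2, and since these copies are nearly identical, the split of reads between them is uncertain. The list stood at 3109 CPM in the day-2 sorted library and at 1675 CPM in the other day-2 library. Of the 12 smallest ratios of all entries with at least 100 reads, 4 belonged to entries of Gm genes. These had 0 to 12 reads at day 15 and 287 to 1037 reads at day 2. The entries with 287 to 302 reads share the joined name Gm4301+Gm4312. Whether they hold the same reads was not tested, so they may not be separate genes. Gdf3, a growth factor of ES cells, had 3 reads at day 15 and 414 at day 2, an interval of 54.2-fold to 777-fold lower.

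Germ cell genes fell too. Of 15 members 7 fell, and Mael, of the piRNA pathway, was 45.9-fold lower (20.8 to 126). Ddx4 (Vasa), a helicase of germ cells, stood at 0.648 CPM at day 15 and 22.8 CPM at day 2. Rhox6 and Rhox9, homeobox genes of placenta and germ line on the X chromosome, went against the rest, at 24.1 and 16.6 CPM at day 15 and 1.95 and 1.5 CPM at day 2.

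DNA methylation enzymes fell in most members. Of 9 members 6 fell, among them Dnmt3a at 123 CPM at day 15 and 573 CPM at day 2, Uhrf1, which guides maintenance methylation, at 133 CPM at day 15 and 559 CPM at day 2, and Tet1, which oxidises methylcytosine, at 33.3 CPM at day 15 and 210 CPM at day 2. Tet2 and Tet3 rose, with 74.7 and 78.3 CPM at day 15 and 11.7 and 22.3 CPM at day 2. Dnmt1, the maintenance enzyme, was inside 2-fold, at 297 CPM at day 15 and 481 CPM at day 2.

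Imprinted genes, which are expressed from 1 parental copy, rose in most of the listed members. H19, a long noncoding RNA of fetal mesoderm and endoderm counted together with its microRNA Mir675, stood at 5824 RPKM at day 15, the next after Eef1a1 at 5948, and at 12.5 RPKM at day 2. Igf2, the fetal growth factor next to it, counted with its antisense transcript, stood at 1692 RPKM at day 15 and 0.968 RPKM at day 2. Of 27 imprinted members 17 rose and 3 fell. Dlk1, a surface protein of fetal mesenchyme, was 113-fold (87.1 to 150) higher, and Plagl1 (Zac1), a growth-restraining zinc finger factor, stood at 769 CPM at day 15 and 4.05 CPM at day 2. Meg3, a noncoding RNA of the Dlk1 locus, stood at 1815 CPM at day 15 and 849 CPM at day 2, and Rian from the same locus was inside 2-fold at 1213 CPM at day 15 and 1030 CPM at day 2. Snrpn, a splicing protein counted with Snurf, fell 4.67-fold (4.19 to 5.22).

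The insulin-like growth factor list moved with them. Of 11 members 9 rose. Igf1, the second ligand, had 38.6 CPM at day 15 and 0 reads at day 2, at least 85.9-fold higher. The binding proteins Igfbp5, Igfbp4 and Igfbp7 stood at 385, 258 and 129 CPM at day 15 and 0.6, 6.45 and 0.3 CPM at day 2. Igfbp2 and the receptor Igf2r, which clears Igf2, were inside 2-fold.

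Signalling genes rose in most members of the TGF-beta, Wnt and BMP families. In the TGF-beta family the ligands Tgfb3, Tgfb2 and Tgfb1 stood at 118, 100 and 50.8 CPM at day 15 and at 0, 0.3 and 4.95 CPM at day 2. The receptor Tgfbr2 stood at 174 CPM at day 15 and 0.75 CPM at day 2, while Tgfbr1, its signalling partner, was inside 2-fold at 35.4 CPM at day 15 and 24.3 CPM at day 2. Among targets Thbs1 (thrombospondin) stood at 1866 CPM at day 15 and 54.7 CPM at day 2, and Skil, a repressor of the pathway, fell, with 91 CPM at day 15 and 243 CPM at day 2. Of 17 members 14 rose and 1 fell.

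In the Wnt family 20 of 27 members rose and 1 fell. Of the ligands, Wnt5a had 63.4 CPM at day 15 and 1 read at day 2, and Wnt4 had 37.2 CPM at day 15 and 0.6 CPM at day 2. Secreted inhibitors rose beside them: Dkk2 had 42.7 CPM at day 15 and 0 reads at day 2, at least 94.9-fold higher, and Sfrp1 had 135 CPM at day 15 and 8.99 CPM at day 2. Axin2, a common target, had 73.1 CPM at day 15 and 17.2 CPM at day 2, and Lef1, a partner factor of the pathway that also marks the epiblast, fell, with 16.1 CPM at day 15 and 44.5 CPM at day 2. In the BMP family 14 of 20 members rose and none fell. Bmp4 stood at 61.2 CPM at day 15 and 2.1 CPM at day 2, Bmp2 had 43.4 CPM at day 15 and 0 reads at day 2, and the antagonist Nog (noggin) had 34.1 CPM at day 15 and 0 reads at day 2, while the targets Id1 and Id2 were inside 2-fold.

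Hedgehog and Notch genes moved less. Of 13 Hedgehog members 7 rose and 1 fell. Shh, the ligand of gut, notochord and hair epithelium, counted with an overlapping transcript, had 10.8 CPM at day 15 and 1 read at day 2, and the target Gli1 had 33.3 CPM at day 15 and 12.9 CPM at day 2. Ptch1, the receptor and target, was inside 2-fold, at 104 CPM at day 15 and 58.3 CPM at day 2. Of 15 Notch members 10 had enough reads, and of these 5 rose and 2 fell, beside 31.6% higher and 18.0% lower among all entries tested. Jag1 and Hes1, a ligand and a target, had 126 and 124 CPM at day 15 and 22.6 and 38.2 CPM at day 2, and the ligands Dll1 and Dll3 fell, with 12.3 and 2.46 CPM at day 15 and 77.2 and 17.8 CPM at day 2.

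The other libraries give a scale for these levels. Of 35 tissue lists, 22 were highest in the day-15 untreated library among all 19 libraries, as levels with no test. The parietal endoderm list was not: it stood at 39065 CPM at day 15 without AICAR, at 24784 CPM in the unfractionated AICAR culture and at 70274 CPM in the AICAR GFP-negative cells. Col1a1 stood at 14755 CPM without AICAR, at 4453 CPM in the unfractionated AICAR culture and at 168 CPM in its GFP-negative fraction. Krt5, at 734 CPM without AICAR, stood at 0 to 3.47 CPM in the other 18 libraries, and Krt1, at 205 CPM, at 0 to 0.3 CPM. Acta2 by contrast was also high in the unfractionated AICAR culture, at 1533 CPM. In undifferentiated cells Col1a1 stood at 3.23 CPM, Acta2 at 0.587 CPM and Krt5 at 0 reads.

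**Figure D5:**
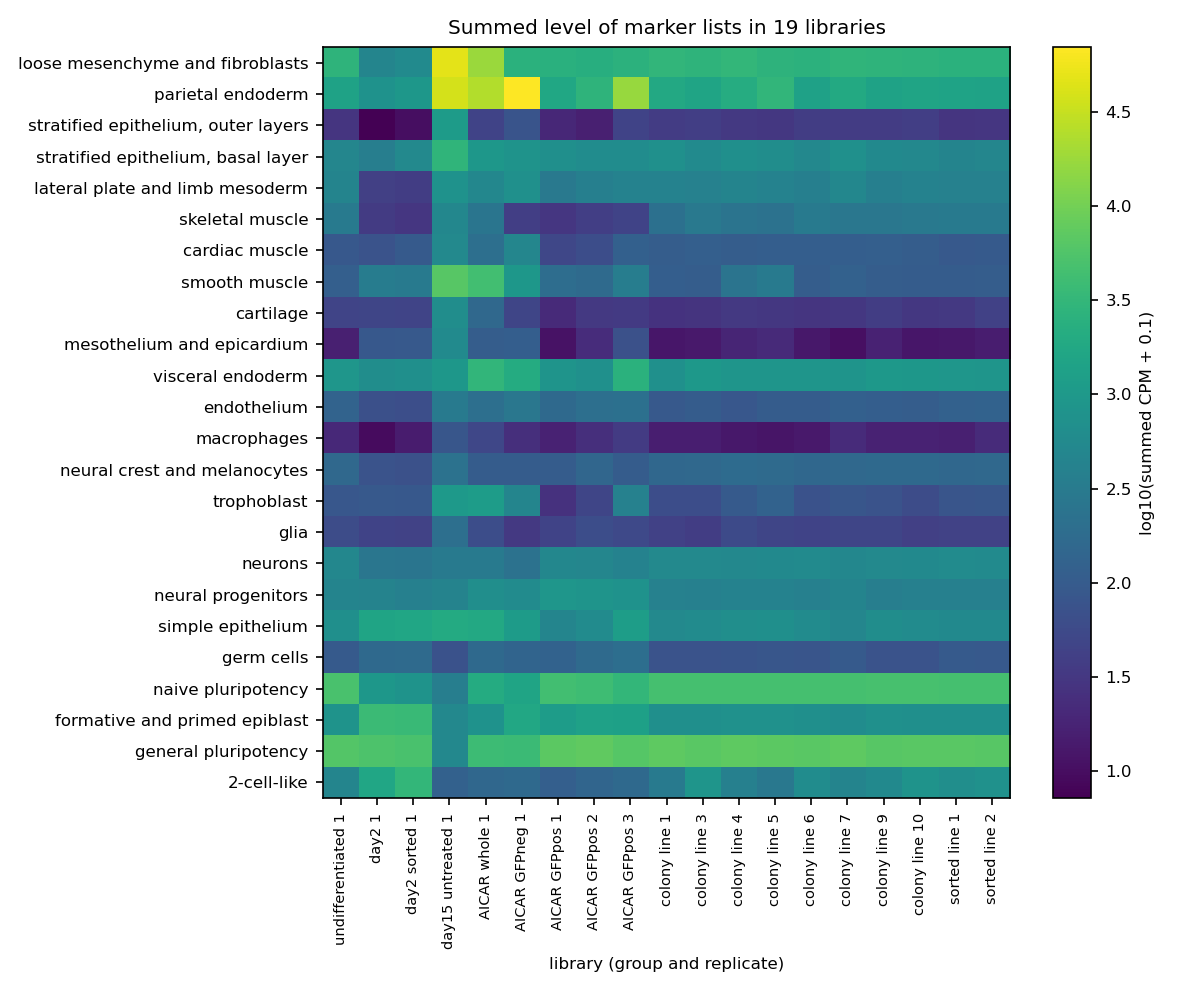
Summed level of 24 marker lists in all 19 libraries as log10 of CPM plus 0.1, with libraries in columns by group and replicate and lists in rows. The day-15 untreated column holds the highest mesenchyme value, 48893 CPM, and the lowest general pluripotency value, 515 CPM, and the highest parietal endoderm value is in the AICAR GFP-negative column.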

How the data were processed

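Stranded mRNA libraries were sequenced, and each library has 1 table of genes. Its counts are whole uniquely mapped reads per gene from rpkmforgenes, run by the authors on RefSeq genes, per the file headers. RPKM values, also deposited by the authors, leave out 3′ untranslated regions, per the file headers. The submitters' processing notes name bcl2fastq, CASAVA 1.8.2, Trimmomatic 0.3.3, Bowtie2 2.2.5, TopHat2 2.0.14 and the build mm9. Whether counting used the strand is not given in the sources used here, so antisense partners cannot be told apart. Of 22756 entries, 974 join overlapping genes under 1 name and 448 share a name, and a listed gene with several entries is read from the one with the most reads.

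CPM were computed from the deposited counts (Python 3.11.15, pandas 2.3.3), log2 ratios with a prior count of 2, fold intervals as exact binomial intervals of both counts (scipy 1.17.1), and intervals of sums as those of the summed reads. A count of 0 was set to a floor of 3 reads for a fold. Without molecular identifiers, reads are not independent molecules, so intervals and floors cover counting error only. The steps were tested on simulated data. TMM factors came from edgeR 4.0.16 in R 4.3.3, as an alternative. The 69 gene lists, the markers and the rule for naming genes were chosen with earlier results of these data known: the 12 largest and 12 smallest ratios with at least 100 reads, the 10 highest RPKM at day 15, and members of a list by reads, by absence and by going against the rest. Many genes stand in several lists. Coordinates are printed only for promoters of the RefSeq table (GRCm38.p6), not of mm9. Some listed genes are not reported here.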

Additional observations from a re-analysis of the deposited data

How the results depend on the processing

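No listed gene called past 2-fold changed direction under any alternative tried. Summed levels, which use neither the prior count nor the read minimum, were checked under the other alternatives, and none past 2-fold changed direction. Called entries outside the lists were not checked for direction. The read minimum moved the counts most. At 100 reads, members higher were 3 for bone, 3 for definitive endoderm and gut tube, 3 for glia, 5 for trophoblast and 3 for primitive streak and early mesoderm, and germ cell members lower were 4. With no minimum beyond 1 read, 5697 entries were higher and 3171 lower, and members higher were 11 for endothelium, 9 for definitive endoderm and gut tube, 9 for bone, 15 for neurons, 11 for glia, 11 for neural crest and melanocytes, 16 for trophoblast and 12 for primitive streak and early mesoderm. These moves follow from how many entries each minimum lets in. With the other day-2 library, members higher were 3 for neurons, and the cause was not tested. Counts of all entries higher and lower were 3404 and 2346 under TMM, 3198 and 2588 under median-of-ratios scaling, and 3954 and 1712 with Rn45s and the top 20 entries left out of the library size. Of 693 gene ratios, 209 moved past their counting interval with the other day-2 library and 194 under median-of-ratios scaling. No paired analysis was possible because each side is 1 library. With 1 library a side, the spread between cultures is unknown, and at this depth genes under 50 reads cannot be called.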

Other observations

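Cell division genes were read in both libraries. Of 20 genes of G2 and mitosis none rose and 4 fell, Ccnb1, Bub1, Bub1b and Cdc20, which drive or check mitosis, beside 18.0% lower among all entries tested, and the sum was 2963 CPM at day 15 and 4638 CPM at day 2. Mki67, the common marker of cycling cells, stood at 539 CPM at day 15 and 492 CPM at day 2. Among genes of the G1 phase, Ccnd2 (cyclin D2) had 1507 reads at day 15 and 5 at day 2, and Ccne1 (cyclin E1) fell, with 27.1 CPM at day 15 and 220 CPM at day 2. The inhibitors Cdkn1a (p21), Cdkn2a and Cdkn2b rose, with 155, 69.8 and 23.6 CPM at day 15 and 22.6, 11.2 and 1.35 CPM at day 2. Of 17 purine synthesis genes 13 fell and none rose, such as Gart, at 121 CPM at day 15 and 719 CPM at day 2. Of 30 oxidative phosphorylation genes 6 fell under CPM scaling, a share near those 18.0%, 8 under median-of-ratios scaling and 2 with Rn45s and the top 20 entries left out.

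Lysosomal genes rose in 14 of 18 members, and Ctsb (cathepsin B) was 8.31-fold (7.39 to 9.37) higher, while Lamp1, a membrane protein of all lysosomes, was inside 2-fold. Ctsk, the collagen-cutting cathepsin of bone resorption and fibroblasts, had 23.1 CPM at day 15 and 1.2 CPM at day 2. Secreted signals of stroma rose in 9 of 18 cytokine members. Ccl2, which attracts monocytes, had 16.1 CPM at day 15 and 0 reads at day 2, at least 35.8-fold higher, and Cxcl12, a stromal chemokine, had 29.2 CPM at day 15 and 5.85 CPM at day 2. Tnf, an inflammatory cytokine, had 2 reads at day 15 and 0 at day 2, and Cxcl2 had none in either library. Of 15 members of the AMPK pathway, the target of AICAR in the rest of the series, 13 had enough reads. Of these, 4 rose and 1 fell without AICAR, and 8 were inside 2-fold. The share that rose was near the 31.6% higher among all entries tested. Cpt1a, which brings fatty acids into mitochondria, rose, with 44 CPM at day 15 and 13 CPM at day 2, and Prkaa1, a catalytic subunit of AMPK, was inside 2-fold at 44.6 CPM at day 15 and 30.6 CPM at day 2.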
